A study of Mus musculus with 4 samples.

Results

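The genes described here were Dicer1, Drosha, Dgcr8, Ago1, Ago2, Ago3, Ago4, Mael and Pld6, which encode core proteins of the microRNA, endogenous siRNA and piRNA pathways. They were taken by symbol from the gene table, where all 9 were present among 20171 genes, and their isoforms were followed in the isoform table, where 7 of the 9 had at least 1 isoform. The tables held 161 single cells of mouse oocytes, preimplantation embryos and mouse embryonic stem cells (mESC, the E14 Tg2A line), whose full-length cDNA was read with PacBio long reads by the HIT-scISOseq method. Females were 6- to 8-week-old C57BL/6J mice mated with DBA/2NCrl males according to the design text, while the strain label read DBA/2J x C57BL/6J. No group was treated or carried a mutation beyond the superovulation that all females shared. Counted from hCG, MII oocytes came from non-mated females at 20 h, fertilized eggs (zygotes) at 22 to 24 h, early 2-cell embryos (E2C) at 30 to 32 h, late 2-cell embryos (L2C) at 46 to 48 h, 4-cell embryos at 54 to 56 h, 8-cell embryos at 68 to 70 h, 16- and 32-cell embryos at 78 to 80 h and early blastocysts at 88 to 90 h. Column names tied 121 cells to 43 oocytes, zygotes or embryos, of which 10 were oocytes and 9 zygotes, while the embryos numbered 5 at E2C, 6 at L2C, 5 at 4-cell, 4 at 8-cell and 4 at 16-cell. The 22 32-cell, 13 blastocyst and 5 mESC cells named no embryo, so their values are given over cells and entered no test.

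MicroRNA production begins in the nucleus. Drosha, an RNase III enzyme, and its RNA-binding partner Dgcr8 cut primary microRNA transcripts into hairpins, and Dicer1, a cytoplasmic RNase III enzyme, cuts those hairpins and long double-stranded RNA into small RNAs. Argonaute proteins (Ago1 to Ago4) carry these small RNAs to their targets, and Ago2 can cleave a target itself. Mouse oocytes are known for abundant endogenous siRNAs and for a Dicer1 transcript that starts from an intronic retrotransposon-derived promoter and encodes a protein without part of the amino-terminal helicase domain. Mael and Pld6 (also called Zucchini or MitoPLD) act in the piRNA pathway, which silences transposons in germ cells.

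The Dicer1 start sites are shown first because the clearest isoform difference concerned them. The gene lies on the minus strand of mouse chromosome 12 (GRCm38, chr12:104687742-104751952), and its annotated coding transcript has 27 exons. Isoform PB.18116.87 was the most abundant of the 7 Dicer1 isoforms, with 137 of 220 isoform UMIs (unique molecular identifiers, each marking 1 captured molecule). Its 5′ end lay at position 104727493, inside intron 6 (104724071 to 104728332), and its first exon of 191 bp, which the annotation does not hold, was spliced to annotated exon 7 through a GT donor and an AG acceptor. The window below covers 250 bases before this 5′ end and the first 30 transcribed bases, which are in capitals (chr12:104727464-104727743, minus strand, GRCm38, read from GENCODE vM21 transcripts).
Dicer1 intronic start: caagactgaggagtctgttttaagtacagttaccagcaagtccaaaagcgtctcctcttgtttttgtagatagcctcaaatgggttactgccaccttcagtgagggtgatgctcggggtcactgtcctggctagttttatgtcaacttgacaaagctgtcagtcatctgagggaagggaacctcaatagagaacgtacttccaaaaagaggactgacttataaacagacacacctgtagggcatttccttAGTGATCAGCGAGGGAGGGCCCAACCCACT
The junction with exon 7 is shown with 20 bases on each side, and the capitals mark annotated exon 7.
Dicer1 start exon to exon 7 junction: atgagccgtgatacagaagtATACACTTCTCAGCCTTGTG
The letters TATAAA occurred once in the window, 32 bases before the 5′ end on the transcribed strand, and 13.1% of 32851 RefSeq promoter windows of the same length held them on either strand. The letters CCAAT did not occur on either strand, and 36.1% of the promoter windows held them.

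Isoform PB.18116.87 had 3 exons and 722 bp and ended at position 104722082 inside exon 8, 111 bases before the end of that exon. The genome after this end was rich in A, with 14 A in the next 20 bases, which are in capitals in the sequence below (chr12:104722062-104722091, minus strand).
Dicer1 after 3-prime end: atgatgacgaAGAAATTGAAGAAAAAGAAA
Oligo(dT) priming can begin at such a stretch inside a transcript, and whether it did here was not tested, so the sequenced molecule need not be the whole transcript. Exon 7 begins at codon 235 of the annotated reading frame. The first ATG in that frame lay in the new exon at isoform position 172, the next lay at annotated codon 262, and no stop codon followed either within the isoform. A second isoform from the same region, PB.18116.89, started at position 104727399 and had 16 UMIs. The other 5 Dicer1 isoforms, with 7 to 23 UMIs each, began between intron 20 and intron 25 and ended in exon 27, the last exon. None of the 7 isoforms started within 110 bases of an annotated start, so no deposited Dicer1 isoform read the annotated first exon.

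**Figure D1:**
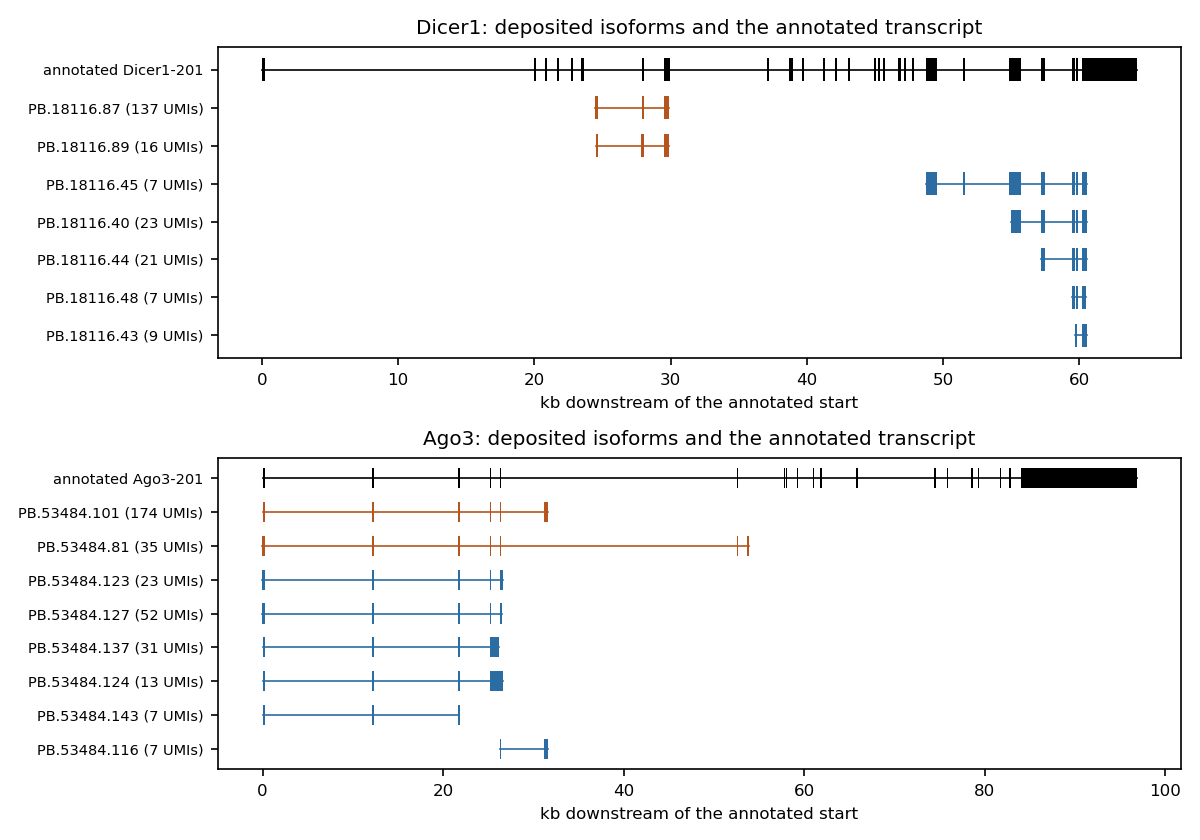
Deposited isoforms of Dicer1 (top) and Ago3 (bottom) below the annotated transcript, drawn to scale in kb downstream of the annotated start, with exons as blocks and the UMIs of each isoform in parentheses. The 2 orange Dicer1 isoforms begin inside intron 6, the blue ones near the 3′ end of the gene, and no Ago3 isoform reaches the last exon (orange marks the isoforms PB.53484.101 and PB.53484.81).

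Depth set what could be seen. Gene UMIs per cell ran from 4985 to 389775 with a median of 38914, and oocytes and zygotes (166731 to 389775) were deeper than every later cell (4985 to 105534). Values are copies per 100,000 UMIs of a cell, averaged over the cells of an embryo. They are shares of a cell's RNA, so a change in a gene and a change in the rest of the RNA cannot be told apart. A count of 0 over all cells of a stage allowed up to 0.148 copies in oocytes, 0.123 in zygotes, 0.354 in E2C, 0.5 in L2C, 0.572 in 4-cell, 0.382 in 8-cell and 0.253 in 16-cell embryos (3 UMIs, counting error only). L2C replicate 1 was 1 cell of 17971 UMIs and 4-cell replicate 2 was 2 cells with 25411 UMIs in all. The stage labels were checked against 9 oocyte marker genes, whose summed level fell from a median of 970 copies per oocyte to 613 per zygote, 332 per E2C cell and 51.5 per L2C cell. A list of 7 late 2-cell marker genes, Zscan4c among them, did not follow the labels, with a median of 48.3 copies per zygote, 51.9 per E2C cell and 7 per L2C cell. Of 8 blastocyst markers, summed levels had a median of 7.74 in oocytes and 71.7 in blastocyst cells. The 5 mESC cells had a median of 43 copies of the oocyte list, with Zp1, Zp2, Bmp15 and Nlrp5 at 0. Detected cumulus and granulosa markers (8 of 12) summed to a median of 8.36 copies in oocytes and 8.11 in zygotes, against 3.24 in E2C and 0 from L2C on, and their part in the results below was not tested.

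Few of these genes changed between neighbouring stages. The comparisons were made in limma, on log2 of the value plus 1 and in 1 fit over the 43 oocytes, zygotes and embryos, and a gene was called at a log2 fold change over 1 and an unadjusted p under 0.01, the limits in the study's methods. Of the 9 genes, 8 passed the filter on low values and Ago4 did not. From oocyte to zygote none of the 8 was called, against 3.24% of all genes, while 2 had an unadjusted p under 0.05 and edgeR and DESeq2 called none. From zygote to E2C Drosha was called higher (1 of 8, with 7.27% of all genes called and 4.52% called higher), and from E2C to L2C Mael was called higher (1 of 8, with 48.4% called and 25.6% called higher). Between L2C and 4-cell no member was called by limma, edgeR or DESeq2 (6.69% of genes called), and 1 had an unadjusted p under 0.05. From 4-cell to 8-cell Mael was called lower (15.0% of genes called, 4.47% higher), and from 8-cell to 16-cell Ago2 was called lower (3.36% called, 1.90% higher). Over the whole span from oocyte to 16-cell, Dicer1 and Ago3 were lower and Drosha was higher, 3 of 8 against 50.8% of all genes called. Neighbouring comparisons share a stage, so their values are not independent. Fold changes below are on the log2(value + 1) scale, where changes of scarce transcripts come out too small. Unless stated otherwise, they are given with their standard error and the Benjamini-Hochberg adjusted p over 11682 genes, or as the fold change alone.

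Drosha transcripts were scarce in oocytes and zygotes and higher in early 2-cell embryos. Oocytes held 0 to 1.8 copies with a median of 0.232, and 5 of 10 oocytes had no Drosha UMI. Zygotes held 0 to 2.03 copies with a median of 1.27. The 5 E2C embryos held 6.64, 5.31, 7.06, 3.1 and 4.89 copies. All E2C embryos were above all zygotes, and the increase from 1.18 ± 0.633 (SD, n = 9) to 5.4 ± 1.57 copies (n = 5) was 1.57 ± 0.302 (adjusted p = 1.23e-04, limma). The smaller step from oocyte to zygote, 0.59 ± 0.22, did not reach the fold limit (unadjusted p = 0.00899, adjusted p = 0.0602, limma), though it did with a pseudocount of 0.1 (1.69). Drosha then stood at 5.91 ± 3.5 in L2C, 6.52 ± 3.9 in 4-cell, 3.3 ± 0.992 in 8-cell and 2.79 ± 1.29 in 16-cell embryos, and none of these steps was called. From oocyte to 16-cell Drosha rose by 1.51 ± 0.333 (adjusted p = 7.28e-05, limma), with 16-cell embryos at 3.63, 1.94, 1.45 and 4.13 copies, so the lowest of them lay below the highest oocyte. Median levels per cell were 0 (0 to 14.6) at the 32-cell stage, 1.97 (0 to 11.4) in blastocysts and 4.3 (0 to 5.46) in mESC.

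Dgcr8, the partner of Drosha, stayed low, and no comparison of it was called. Its mean was 0.807 ± 0.891 copies in oocytes, 0.58 ± 0.325 in zygotes, 0.806 ± 0.486 in E2C, 2.06 ± 2.1 in L2C, 2.31 ± 1.46 in 4-cell, 1.71 ± 0.983 in 8-cell and 0.833 ± 0.711 in 16-cell embryos. The embryos of every pair of neighbouring stages overlapped. Blastocyst cells had a median of 3.95 copies (0 to 17, 28 UMIs in 13 cells), and mESC cells 3.99 (3 UMIs in 5 cells). Dgcr8 overlaps Trmt2a, which lies on the opposite strand and had 225 UMIs over all cells.

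Dicer1 stood at a similar level up to the early 2-cell stage and was lower at the 16-cell stage. Oocytes held 7.08 to 19.19 copies with a median of 14.3, and zygotes 9.08 to 18.9 with a median of 15.4. E2C embryos held 13.8, 19.6, 15.4, 3.58 and 17.8 copies, of which 4 lay within the zygote range or just above it and 1 far below. The means of these stages, 14 ± 4.25, 14.9 ± 3.4 and 14 ± 6.24 copies, differed by less than the spread between embryos. L2C embryos ranged from 0 to 16.2 copies (mean 7.02 ± 5.35), and the fall of 0.65 from E2C (SE 0.422, adjusted p = 0.182, limma) was not called. It was called by edgeR (-1.05), by DESeq2 (-1.23) and by limma without E2C replicate 4 (-1.11), the embryo at 3.58 copies. The 4-cell embryos held 5.48, 19.8, 0, 4.25 and 3.12 copies, the highest of which was replicate 2 with 5 UMIs. The 8-cell embryos held 1.14, 2.8, 5.84 and 1.41 copies and the 16-cell embryos 3.86, 2.06, 6.07 and 3.85. All 16-cell embryos were below all oocytes, and Dicer1 fell by 1.67 on the log2 scale over that span (SE 0.339, adjusted p = 1.77e-05, limma). With the isoform table summed per gene the fall was 1.24 and was not called, while the step from zygote to E2C was called there (-1.71). Later cells had medians of 0 (32-cell, 0 to 16.4) and 2.44 copies (blastocyst, 0 to 6.86), and mESC gave 1 UMI in 5 cells. The oocyte marker list, at 31.2 copies per 16-cell cell against 970 per oocyte, fell over the same span, and its part in the Dicer1 values was not tested.

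**Figure D2:**
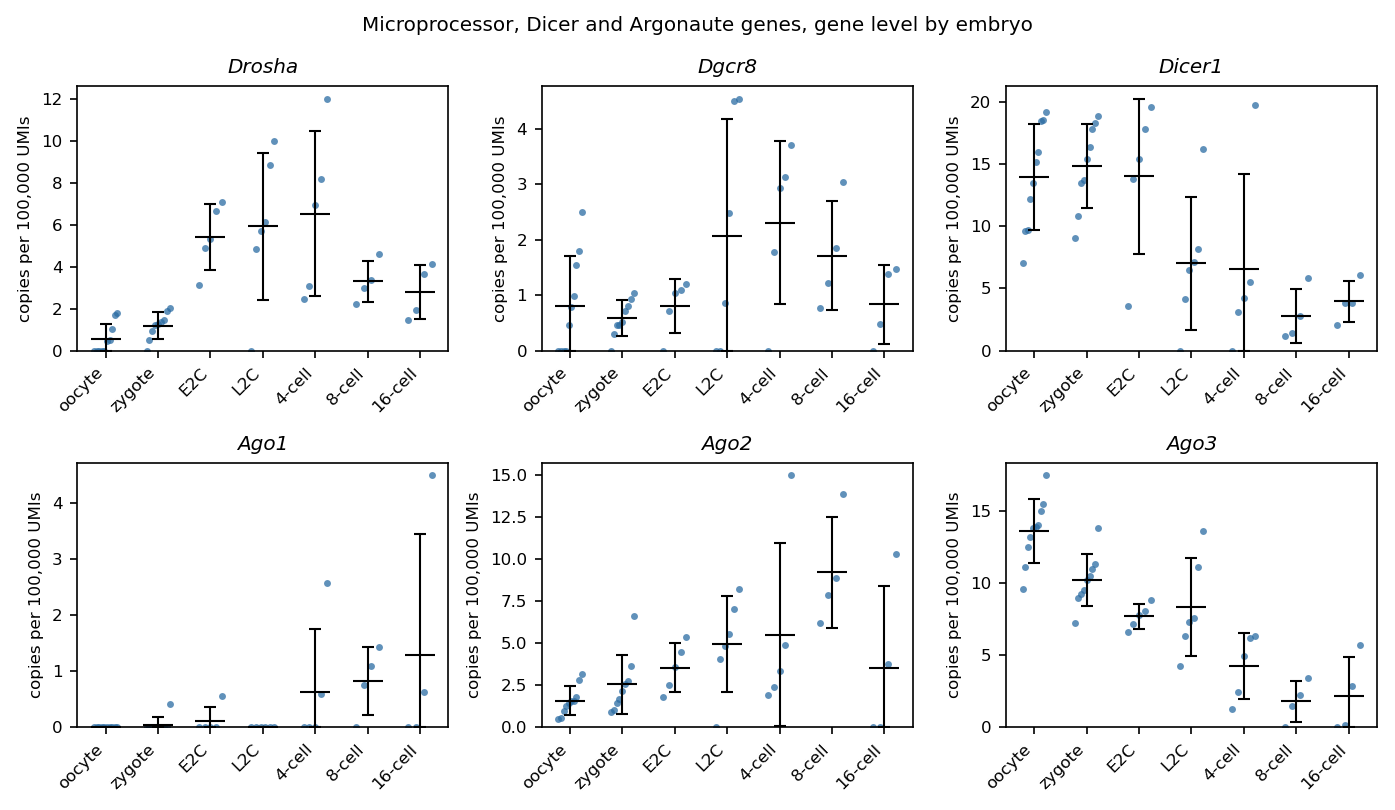
Gene level of Drosha, Dgcr8, Dicer1, Ago1, Ago2 and Ago3 in copies per 100,000 UMIs (linear axes, each with its own range) by stage. Each point is 1 oocyte, zygote or embryo, and lines show the mean ± SD, cut at 0. Drosha is higher in every E2C embryo than in any zygote, Dicer1 and Ago3 are lower at the 16-cell stage than in oocytes, and Ago1 is at 0 in every oocyte.

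Of the 35 isoforms of these genes 16 passed the same filter, and the limits called 1 higher and 2 lower from zygote to E2C, 1 higher and 1 lower from E2C to L2C, 1 lower from 4-cell to 8-cell and 3 lower from oocyte to 16-cell. Of all 29409 isoforms tested, 1.48% were called from oocyte to zygote, 5.18% from zygote to E2C, 26.0% from E2C to L2C, 4.29% from L2C to 4-cell, 7.93% from 4-cell to 8-cell, 1.97% from 8-cell to 16-cell and 31.2% from oocyte to 16-cell.

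The intronic Dicer1 start was found almost wholly in oocytes and zygotes. PB.18116.87 had 53 UMIs in oocytes, 84 in zygotes and 0 in every later cell, and PB.18116.89 had 6, 9 and, in 1 E2C embryo, 1. Oocytes held 0 to 10.8 copies of PB.18116.87 with a median of 2.02, and 9 of 10 oocytes had it. Zygotes held 1.27 to 11.8 copies with a median of 3.89, and all 9 had it. The isoform passed the filter only through oocytes and zygotes. All 5 E2C embryos were at 0, below every zygote, and the change was -2.41 ± 0.387 (limma, with 5.18% of 29409 isoforms called at this step). It is a description given without a p, because the stages that let the isoform through the filter are those where it was high. Against the limit that 0 UMIs in E2C allowed, 0.561 copies over the stage, the zygote mean of 4.87 copies was at least 8.69-fold higher. While the Dicer1 gene level was 14.9 ± 3.4 copies in zygotes and 14 ± 6.24 in E2C, this isoform was no longer seen in E2C.

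As a share of Dicer1 isoform UMIs, the intron 6 start accounted for 93.7% in oocytes (59 of 63 UMIs, exact 95% binomial interval 84.5 to 98.2) and 92.1% in zygotes (93 of 101, 85 to 96.5). In E2C it was 10% (1 of 10, 0.253 to 44.5), and in L2C it was 0 of 13, which allows up to 24.7%. Later stages had 0 of 9 (4-cell), 0 of 4 (8-cell), 0 of 10 (16-cell), 0 of 8 (32-cell) and 0 of 2 UMIs (blastocyst), and mESC had no Dicer1 isoform UMI. Intervals cover counting error only. The start region was picked as the intronic cluster of 5′ ends with the most UMIs, and oocytes and zygotes held most UMIs. Among embryos with at least 5 Dicer1 isoform UMIs, 14 oocytes, zygotes and E2C embryos averaged 87.1% ± 24.7 (SD), and L2C replicate 2 and 16-cell replicate 2, the only later embryos with as many, were both at 0. The difference of 87.1 percentage points is a description and is given without a p, since the UMIs that picked the region came from the oocytes and zygotes.

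Only a part of the Dicer1 molecules of the gene table reached the isoform table, 220 of 914 UMIs, so the share was also taken over gene UMIs, a choice made after the data were seen. The intron 6 start then made up 21.1% of the Dicer1 UMIs of oocytes (59 of 280, 16.4 to 26.3) and 24.9% of those of zygotes (93 of 373, 20.6 to 29.6). For E2C the value was 0.926% (1 of 108, 0.0234 to 5.05). It was 0 of 49 in L2C, which allows up to 7.25%, and 0 of 35 at the 16-cell stage, which allows up to 10%. Over 24 embryos up to E2C the mean was 17.1% ± 14.4, and all 13 later embryos with at least 5 gene UMIs were at 0, again as a description. All 5 E2C embryos were at or below 3.33%, and of the oocytes 9 of 10 were above that value.

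**Figure D3:**
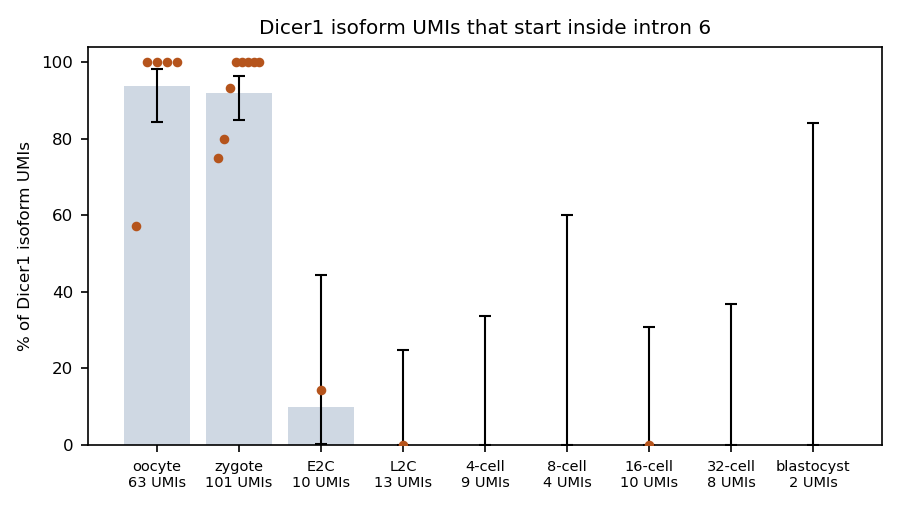
Percentage of Dicer1 isoform UMIs that start inside intron 6, by stage, with the UMIs under each stage name. Bars are pooled over the cells of a stage with exact 95% binomial intervals, and points are embryos with at least 5 such UMIs. Oocytes and zygotes are above 90% as pooled bars, E2C is at 10%, and no later stage has a molecule from this start.

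A further set of oocyte libraries, sequenced as batch 4 from intact, 1/2 and 1/4 oocytes, gave 16 columns with whole UMI counts. Over the isoforms held by both isoform tables, Dicer1 had 16 UMIs among 3242039, a mean of 0.498 ± 0.439 copies per column (SD), against 4.77 ± 4.42 in the 10 oocytes of the first 3 batches. The first oocytes ranged from 0 to 12.3 copies and the later columns from 0 to 1.57, so the sets overlapped. Of the 16 UMIs, 8 came from the intron 6 start (50%, exact 95% binomial interval 24.7 to 75.3), with 3 of 5 in intact, 4 of 7 in 1/2 and 1 of 4 in 1/4 oocytes. In the first oocytes 59 of 62 did (95.2%, 86.5 to 99). No test was made, because the labels do not tell which pieces came from 1 oocyte and the batches were processed apart. Ago3 in the columns taken as intact oocytes had 11.2 ± 1.82 copies (n = 4), close to 12.2 ± 3.07 in the first 10 oocytes. The 1/2 and 1/4 oocytes had 4.99 ± 1.7 and 6.6 ± 2.79 (n = 6 columns each). The columns taken as intact carry the tag b5 in place of a split label. The labels do not say whether this tag marks a separate batch, and the difference was not tested.

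Ago3 was called lower from oocyte to 16-cell, the only Argonaute of the 3 tested to be so. Oocytes held 9.58 to 17.5 copies with a median of 13.9 and zygotes 7.25 to 13.8 with a median of 10.2. E2C embryos held 7.19, 8.81, 6.58, 7.79 and 8.09 copies, a narrow range inside or just below that of zygotes. L2C embryos averaged 8.37 ± 3.42 copies. The 4-cell embryos held 6.18, 4.9, 6.34, 1.23 and 2.44 copies, and the step from L2C, -1.05 ± 0.411, missed the p limit (unadjusted p = 0.0134, adjusted p = 0.16, limma). It was called without L2C replicate 2 (-1.24), 4-cell replicate 1 (-1.24) or 4-cell replicate 3 (-1.22), with a filter of 5 copies (-1.08) and in the isoform table (-1.54). The 8-cell embryos held 1.49, 3.41, 0 and 2.24 copies and the 16-cell embryos 2.88, 0.136, 5.7 and 0. Every 16-cell embryo lay below every oocyte, and Ago3 fell by 2.41 on the log2 scale from oocyte to 16-cell (SE 0.291, adjusted p = 7.96e-11, limma). Medians were 0 copies in 32-cell cells and 1.86 in blastocyst cells, and 5 mESC cells had no Ago3 UMI.

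The Ago3 isoforms started at the annotated promoter and ended far short of the last exon. The gene spans chr4:126331704-126429556 on the minus strand, and 7 of its 8 isoforms started within 110 bases of an annotated start, while none reached the last of 19 exons. They ended in exon 3 or in introns 4, 5 and 6, and they held 342 of the 697 Ago3 UMIs of the gene table. The bases after the intronic ends were not available, so oligo(dT) priming inside a transcript could not be checked there. The isoform that ended in exon 3, PB.53484.143, had 10 A in the next 20 bases. The sequenced ends therefore need not be those of whole transcripts. The most abundant, PB.53484.101, ended in intron 5 and had 174 UMIs, 100 of them in oocytes and 56 in zygotes. It averaged 7.19 ± 2.79 copies in oocytes, 3.15 ± 1.65 in zygotes and 0.966 ± 0.898 in E2C. From zygote to E2C it was called lower (-1.04 ± 0.363, unadjusted p = 0.00546, adjusted p = 0.0763, limma), with overlapping embryos, and from oocyte to 16-cell it fell by 2.57 (SE 0.351, adjusted p = 5.61e-09, limma, with 31.2% of isoforms called). The first of these calls was lost in 7 alternatives, 5 of them with 1 embryo left out. PB.53484.81, which ended in intron 6, had 8 UMIs in oocytes, 7 in zygotes, 2 in E2C and 8 in L2C, and no step of it was called. The start share within the Ago3 isoforms was 97.6% ± 3.51 over 20 oocytes, zygotes and E2C embryos and 100% in 2 later ones. It is a description given without a p, since most UMIs that picked the region came from oocytes and zygotes.

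Ago2, the Argonaute with slicer activity, had its highest mean at the 8-cell stage. Means were 1.55 ± 0.862 copies in oocytes (0.508 to 3.13), 2.54 ± 1.77 in zygotes (0.917 to 6.64), 3.54 ± 1.46 in E2C and 4.94 ± 2.85 in L2C. The 4-cell embryos held 15, 4.9, 3.36, 2.39 and 1.88 copies and the 8-cell embryos 8.88, 13.9, 6.2 and 7.87. The step between them, 1.21 ± 0.511, missed the p limit (unadjusted p = 0.0205, adjusted p = 0.101, limma) and was called without 4-cell replicate 1, the embryo at 15 copies (1.61). At the 16-cell stage 2 embryos held 3.74 and 10.3 copies and the other 2 held none. The step from 8-cell to 16-cell was called lower (-1.51 ± 0.478, unadjusted p = 0.0024, adjusted p = 0.106, limma), with overlapping embryos. It was lost without 8-cell replicate 2 (-1.31), 16-cell replicate 3 (-1.15) or 16-cell replicate 4 (-1.17), with a pseudocount of 5 (-0.82) and in the isoform table (0.03), and edgeR (-0.73) and DESeq2 (-1.04) did not call it. The 16-cell embryos without an Ago2 UMI, replicates 3 and 4, had 79331 and 82203 UMIs in all, fewer than the 432283 and 589926 of replicates 1 and 2. Blastocyst cells held 1.88 to 10.6 copies with a median of 5.34, and 32-cell cells 0 to 17.5 with a median of 6.19. Ago2 overlaps Chrac1 on the opposite strand, which had 207 UMIs.

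Ago2 isoforms from an intron 1 start were seen mainly up to E2C. Both Ago2 isoforms of the table began inside intron 1, at positions 73177886 (PB.26930.27) and 73177878 (PB.26930.16) of chromosome 15, 39 and 31 bases upstream of the start of an annotated noncoding Ago2 transcript. Both ended in intron 3, at 73137427 and 73134502. The bases after these ends were not available, so oligo(dT) priming inside a transcript was not tested. They had 53 and 47 UMIs, and no deposited isoform began at the start of the annotated coding transcript. No other Ago2 isoform was in the table, so the start of the remaining gene UMIs is not known, and the isoforms entered the table mostly through oocytes, zygotes and E2C. As a share of Ago2 gene UMIs, a measure added after the data were seen, these isoforms made up 78.1% in oocytes (25 of 32, 60 to 90.7), 76.2% in zygotes (48 of 63, 63.8 to 86) and 85.2% in E2C (23 of 27, 66.3 to 95.8). In L2C the share was 5.71% (2 of 35, 0.7 to 19.16), in 4-cell embryos 0 of 28, and in 8-cell and 16-cell embryos 1.27% each (1 of 79, 0.032 to 6.85). Among embryos with at least 5 Ago2 gene UMIs, 10 up to E2C had 33.3 to 100% (mean 74.8 ± 17.4) and 11 later ones 0 to 20% (mean 4.39 ± 7.31), so the sets did not overlap. The difference of 70.4 percentage points is a description of these isoforms, given without a p.

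The Ago2 isoforms with different sequenced 3′ ends also differed in time. Both isoforms passed the filter mainly through the stages up to E2C, so their changes are a description given without a p. PB.26930.27 had 24 UMIs in oocytes, 24 in zygotes and 3 in E2C, and it fell by 1.13 from oocyte to 16-cell (SE 0.278, limma). PB.26930.16 had 1 UMI in oocytes, against 24 in zygotes and 20 in E2C embryos. It rose from 1.29 ± 1.75 copies in zygotes to 4.22 ± 2.88 in E2C (1.27 ± 0.332, limma), with overlapping embryos, and neither edgeR nor DESeq2 called this. From E2C to L2C it fell by 2.04 (SE 0.44, limma, with 26.0% of isoforms called). In batch 4 oocytes 34 of 35 Ago2 UMIs were PB.26930.27. At the gene level Ago2 did not pass the limits at either step, with changes of 0.41 and 0.55.

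**Figure D4:**
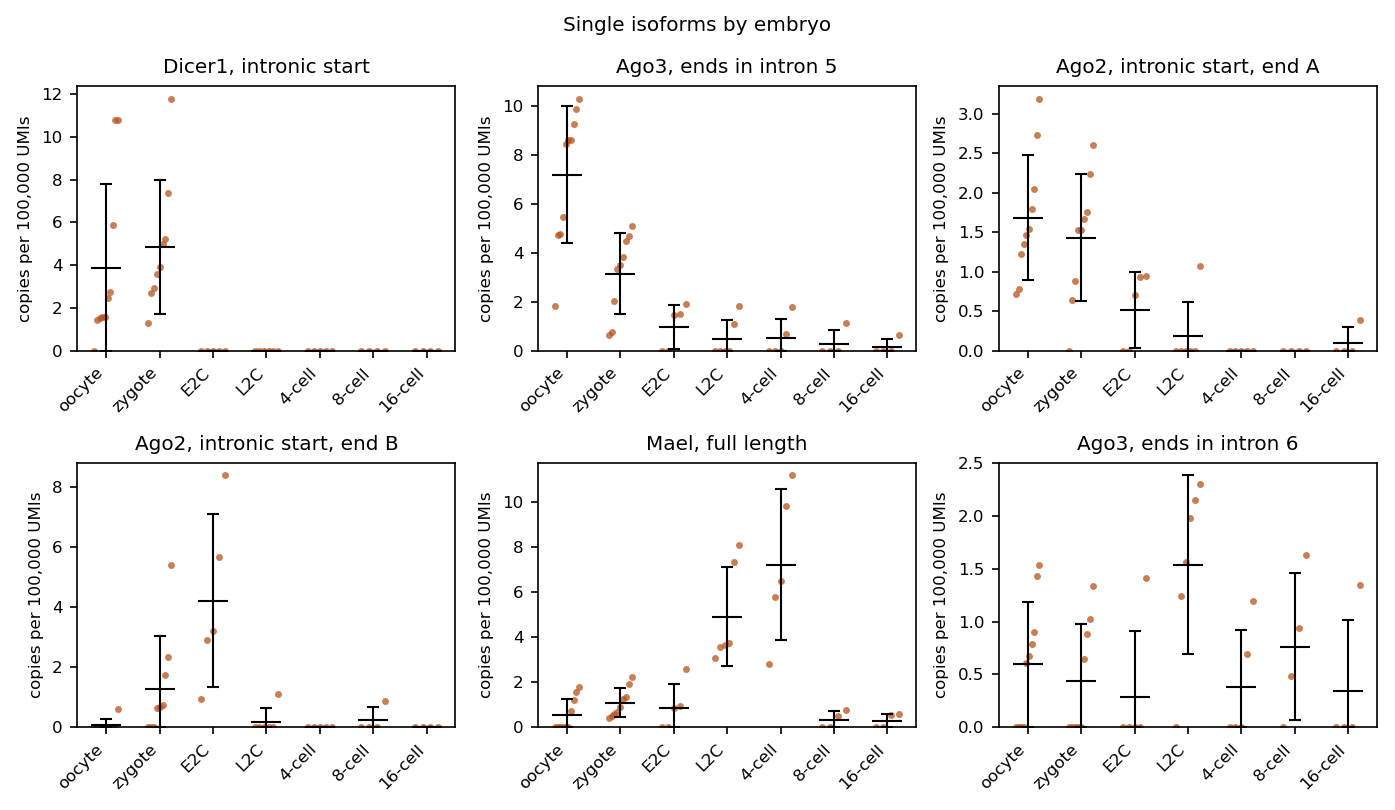
Level of 6 isoforms in copies per 100,000 isoform UMIs (linear axes, each with its own range) by stage: PB.18116.87 of Dicer1, PB.53484.101 and PB.53484.81 of Ago3, PB.26930.27 (end A) and PB.26930.16 (end B) of Ago2, and PB.4450.6 of Mael. Points are oocytes, zygotes or embryos and lines the mean ± SD, cut at 0. The Dicer1 isoform is at 0 from E2C on, Ago2 end B is highest in E2C, and the Mael isoform is highest in L2C and 4-cell embryos.

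Ago1 and Ago4 were near the limit of detection. Ago1 had no UMI in oocytes or L2C embryos, 1 in zygotes, 1 in E2C, 4 at the 4-cell, 8 at the 8-cell and 27 at the 16-cell stage. The 16-cell mean of 1.28 ± 2.16 copies rested on replicate 2, at 4.49 copies. In limma the change from oocyte to 16-cell was 0.59 ± 0.227, under the fold limit, and edgeR called it (4.96). Ago1 passed the filter on low values only through 4-cell to 16-cell embryos, so this is a description given without a p. Ago4 had 30 UMIs in all cells, at most 9 in a stage, and was not tested. Neither gene had an isoform in the table. Both lie near Ago3 on chromosome 4, with Ago1 between Ago3 and Ago4 (Ago1 chr4:126435012-126468583, Ago4 chr4:126489541-126533472, minus strand).

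Mael, a piRNA pathway protein of germ cell granules, was highest in late 2-cell and 4-cell embryos. Oocytes held 0.464 to 2.92 copies (mean 1.21 ± 0.783), zygotes 0.257 to 4.54 (1.82 ± 1.32), and E2C embryos 2.94, 1.76, 2.18, 1.58 and 1.63. L2C embryos held 5.56, 7.77, 5.52, 3.65, 4.07 and 14.5 copies. All L2C embryos were above all E2C embryos, and the increase was 1.33 ± 0.436 (adjusted p = 0.00727, limma). It was lost without L2C replicate 2 (1.24) or 6 (1.06) and with edgeR (1.29), DESeq2 (1.16) and a pseudocount of 0.1 (1.65) or 5 (0.75). The 4-cell embryos held 14.1, 12.2, 8.24, 2.43 and 6.81 copies and the 8-cell embryos 2.43, 0, 0 and 0.406. The lowest 4-cell and the highest 8-cell embryo had the same rounded level, every other 4-cell embryo was above, and the fall of 2.10 (SE 0.469, adjusted p = 8.24e-04, limma) was called in every alternative except a pseudocount of 5 (-0.98). At the 16-cell stage Mael averaged 0.751 ± 0.896 copies. It had no UMI in 22 32-cell cells or 5 mESC cells and 5 UMIs in 13 blastocyst cells.

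Unlike the Argonautes, Mael and Pld6 each had an isoform that was read from end to end. Of the 8 Mael isoforms, 2 started within 110 bases of an annotated start. Isoform PB.4450.6 of Mael (chr1:166201201-166238747, minus strand) had 12 exons, matched an annotated splice chain in full, ended in the last exon and began 101 bases upstream of the nearest annotated start. It carried 89 of 147 Mael isoform UMIs. It rose from 0.865 ± 1.05 copies in E2C to 4.9 ± 2.2 in L2C (1.72 ± 0.442, adjusted p = 0.00163, limma, not called by edgeR or DESeq2) and fell by 2.28 from 4-cell to 8-cell (SE 0.445, adjusted p = 3.02e-04, limma, with 7.93% of isoforms called). The share of Mael UMIs from this start region was 54.7% ± 15.3 in 3 zygotes and E2C embryos with at least 5 Mael isoform UMIs and 66.5% ± 24 in 7 later ones (exact permutation p = 0.45).

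Pld6, the mitochondrial nuclease that forms piRNA 5′ ends, was seen mainly in the same stages. L2C embryos held 0 to 5.65 copies with a median of 0.884 (mean 1.53 ± 2.12) and 4-cell embryos 0, 0, 3.3, 1.19 and 0.595. No 8-cell embryo had a Pld6 UMI, and the means were 0.153, 0.0285 and 0.109 copies in oocytes, zygotes and E2C. The step from E2C to L2C was 0.89 ± 0.277 and from 4-cell to 8-cell -0.86 ± 0.298 (limma), both under the fold limit. Pld6 passed the filter on low values only through L2C and 4-cell embryos. For that reason these steps and the calls that follow are a description, given without a p. Both steps were called by edgeR (2.86 and -3.57) and with a pseudocount of 0.1 (2.47 and -2.71). The first was also called without E2C replicate 1 (1.02) or L2C replicate 2 (1.20) and the second without 4-cell replicate 1 (-1.01). The full-length isoform PB.11507.4 had 6 UMIs in L2C, 5 in 4-cell and 1 in blastocyst cells and began 75 bases upstream of the annotated start.

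The starts of these full-length isoforms are shown because they place the 5′ ends of the molecules that were high in L2C and 4-cell embryos, with the first 30 transcribed bases in capitals (Mael chr1:166238819-166238948 and Pld6 chr11:59787691-59787820, both minus strand, RefSeq promoter sequences on GRCm38.p6).
Mael start: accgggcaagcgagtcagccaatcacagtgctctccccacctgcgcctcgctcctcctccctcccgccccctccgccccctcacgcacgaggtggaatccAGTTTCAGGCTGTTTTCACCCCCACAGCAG
Pld6 start: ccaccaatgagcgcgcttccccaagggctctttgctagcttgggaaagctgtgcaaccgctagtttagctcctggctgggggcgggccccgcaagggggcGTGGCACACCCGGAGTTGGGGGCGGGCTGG
Both windows held the letters CCAAT on the transcribed strand, 82 and 97 bases before the 5′ end, as did 21.7% of promoter windows of this length on either strand, and neither held TATAAA on either strand (6.38% of windows did).

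**Figure D5:**
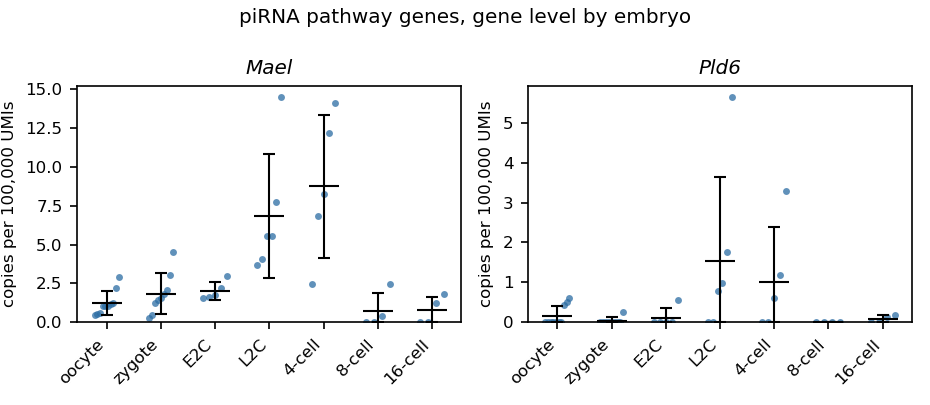
Gene level of Mael (left) and Pld6 (right) in copies per 100,000 UMIs by stage, with 1 point per oocyte, zygote or embryo and lines for the mean ± SD, cut at 0. Mael is between 3.65 and 14.5 copies in L2C embryos and at or below 2.43 in 8-cell embryos, and no 8-cell embryo has a Pld6 UMI.

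Drosha and Dgcr8 gave no 5′ information near their promoters. All 8 Drosha isoforms (chr15:12824815-12935291, plus strand) ended in the last of 35 exons and began between intron 16 and exon 33, with 81 of 253 gene UMIs. The 1 Dgcr8 isoform (chr16:18253948-18289246, minus strand) began in intron 10 and had 7 of 134 UMIs. The share of Drosha UMIs from the most upstream of its starts, in intron 16, was 0 of 23 in oocytes, zygotes and E2C together and 14.3% in L2C (2 of 14, 1.78 to 42.8), with too few embryos of 5 UMIs for a test.

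The genes around these members changed mostly at the late 2-cell stage, where 48.4% of all genes were called. Of 35 listed genes of the microRNA and siRNA pathway, members included, 28 were tested. From E2C to L2C 5 rose and 4 fell, where 25.6% of all genes were called higher and 22.8% lower, with a median change of 0.40 in the list and 0.03 over all genes. Ncbp1, a subunit of the nuclear cap-binding complex, rose from 0.622 ± 0.889 to 13.2 ± 7.06 copies (3.09 ± 0.374, adjusted p = 2.08e-10, limma). Tsn, a subunit of the RNA nuclease C3PO, fell from zygote to E2C (-1.12) and rose from E2C to L2C (2.67). Ipo8, an import receptor linked to Argonaute, fell from 44 ± 7.07 to 4.6 ± 3.3 copies (-3.02 ± 0.384, adjusted p = 9.35e-10, limma). Lin28a, which blocks let-7 maturation, rose from 3.28 to 9.19 copies from zygote to E2C (1.30). In L2C it was called lower, at 4.64 ± 6.11 copies (-1.82 ± 0.453, adjusted p = 5.00e-04, limma). Its paralog Lin28b was also called lower, from 5.31 ± 1.45 to 4.18 ± 6.31 copies (-1.40 ± 0.447, adjusted p = 0.00607, limma). For both genes the E2C and L2C embryos overlapped. Trim71 rose from E2C to L2C (1.92). It was called lower from L2C to 4-cell (-1.32 ± 0.451, unadjusted p = 0.00487, adjusted p = 0.0932, limma), with overlapping embryos. Ncbp2 fell from 53.9 ± 9.42 to 20.4 ± 4.32 copies from 4-cell to 8-cell (-1.38 ± 0.316). From oocyte to 16-cell 9 of the 28 rose and 4 fell, where 26.8% of all genes were called higher and 24.0% lower, with a median of 0.46 against 0.04 over all genes.

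Of 32 listed piRNA pathway genes, 28 were tested. From oocyte to zygote 3 rose, Kif17 (1.43), Tdrd12 (1.30) and Tdrd1 (1.20), where 2.92% of all genes were called higher. From zygote to E2C 3 rose, where 4.52% of all genes were called higher, namely Tdrd3, a Tudor domain protein, from 1.14 ± 1 to 4.15 ± 2.54 copies (1.18 ± 0.316, adjusted p = 0.00661, limma), Tdrd1 (1.17) and Kif17 (1.15). Tdrd1, a Tudor scaffold protein, stood at 1.82 ± 1.2 copies in oocytes, 5.23 ± 2.63 in zygotes and 13.2 ± 4.46 in E2C, and at 1.34 ± 2.16 in L2C (-3.14 ± 0.429 from E2C, adjusted p = 6.26e-09, limma). Kif17 took the same course, from 17 ± 4.01 copies in E2C to 0.758 ± 1.1 in L2C (-3.56 ± 0.391). From E2C to L2C 9 rose and 7 fell, where 25.6% of all genes were called higher and 22.8% lower, shares near those of the list (32.1% and 25%). Wdr77 (3.75) and Prmt5 (2.29), which form the arginine methyltransferase complex that modifies Piwi proteins, and Fkbp6 (2.48) rose, while Asz1 fell (-3.12). From 4-cell to 8-cell 6 of the 28 fell, where 10.5% of all genes were called lower. They included Mael, Pnldc1, the piRNA 3′ trimming enzyme, which went from 8.03 ± 7.12 to 0.626 ± 0.758 copies (-2.06 ± 0.387), and the RNA helicase Ddx4 (-1.63 ± 0.421). From 8-cell to 16-cell Tex19.1 rose from 11.3 ± 3.84 to 29.2 ± 5.88 copies (1.35 ± 0.33, adjusted p = 0.0173, limma), and Tex19.2 rose from a low level (1.17, adjusted p = 0.152, limma).

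The genes whose stage profile was most like that of each member are given as a description, by Pearson's r of the 10 stage means on the log2(value + 1) scale. The stages share libraries and depth, and likeness across 10 points says nothing of a shared function. The most similar were Gm10436 (0.991) and Snx9 (0.990) for Dicer1, AU040320 (0.991) and Depdc7 (0.981) for Ago3, Tfdp2 (0.977) and Tesk2 (0.973) for Mael, and Slc43a2 (0.985) and Gm10658 (0.975) for Pld6. For Ago2 they were Mul1 (0.952) and Ist1 (0.947), for Drosha BC030867 (0.940) and Ecd (0.934), for Dgcr8 Npr1 (0.934) and Ercc8 (0.924), for Ago1 Sept12 (0.967) and Slc26a11 (0.930), and for Ago4 Cgref1 (0.952) and Letmd1 (0.942).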

How the data were processed

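Single cells were amplified with 10x gel-bead primers and a Smart-seq2 style protocol, and pooled cDNA was sequenced on 4 PacBio runs. Per the study's methods, minimap2 served for alignment to mm10, gffcompare for gene names, and cDNA_Cupcake and SQANTI3 for collapsing and filtering isoforms, which had to occur in at least 5 cells. For the first 3 batches the authors deposited CPM-type values. They are copies among 100000 gene UMIs of each cell for 20171 genes, and among 100000 isoform UMIs for 68012 isoforms. Whole UMIs were recovered from them for 100% of non-zero values in every cell (tolerance 0.1 UMI). For batch 4 the authors deposited whole UMI counts for 49271 isoforms in 16 columns. The 4 without a split label carried the tag b5 and were taken as intact oocytes. Columns hold cell names and no barcodes, so shared barcodes could not be counted. Where no embryo was named, cells were not replicates. Nothing ties columns to a run, and p-values measure the spread between embryos.

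Embryo means were tested with limma 3.58.1 (trend, array weights, log2 with pseudocount 1, at least 1 copy in at least 4 embryos), with edgeR 4.0.16 and DESeq2 1.42.0 on recovered UMIs as alternatives, in R 4.3.3. Start shares, with 5′ ends chained within 100 bp, were compared by exact permutation over embryos for Mael. For Dicer1, Ago2 and Ago3 they are given without a p, because mostly UMIs of the early stages picked the start regions. Binomial intervals were computed with scipy 1.17.1. On simulated counts with 200 genes changed 4-fold, 91.5 to 100% were recovered across the 6 neighbouring comparisons. The changed genes were drawn from those at 4 copies or more in the starting stage, with a spread set in advance. The recovery therefore does not cover the scarcer members. All 9 members are named. From the pathway lists at each step the 3 called genes that rose most and the 3 that fell most are named, or as many as there were, among those at 2 copies or more. The members and lists were chosen with earlier results of these data known. The isoform-level fit and the shares of gene UMIs were added after the data were seen.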

Additional observations from a re-analysis of the deposited data

Results flagged for a closer look

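Of 43 groups with at least 10 UMIs that were screened for 1 oocyte or embryo far from the rest, 6 were picked out, where chance picks about 1 in 20. For Dicer1, 4-cell replicate 2 had 19.8 copies per 100,000 UMIs, the highest of 5, and the next had 5.48. For Ago1, 16-cell replicate 2 had 4.49 copies, the highest of 4, and the next had 0.628. For Ago2, zygote replicate 5 had 6.64 copies, the highest of 9, with the next at 3.65, and 4-cell replicate 1 had 15, the highest of 5, with the next at 4.9. For Pld6, L2C replicate 4 had 5.65 copies, the highest of 6, and the next had 1.75. The Dicer1 intronic start share of oocyte replicate 6 was 57.1%, the lowest of 5, while the other 4 were at 100%. The Dicer1 value of 4-cell replicate 2 rested on 5 UMIs and the Pld6 value on 6.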

How the results depend on the processing

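Of 3396 values under other settings, 3330 kept their side of the limits, 39 lost a call, 21 gained one, 3 turned direction with a call in either setting, and 3 counts moved by more than 1.5 times. The 4 calls between neighbouring stages became 0 with a pseudocount of 5 and ranged from 3 to 7 when 1 embryo was left out, with 7 without 4-cell replicate 1. The 3 calls from oocyte to 16-cell became 5 with edgeR and stayed at 3 when any embryo was left out. The difference in the Dicer1 intronic start share was 87.1 to 92.7 percentage points without E2C replicate 3, L2C replicate 2 or 16-cell replicate 2. Oocytes and zygotes were not left out for this value. With the isoform table summed per gene, Ago2 turned from E2C to L2C (-2.03), from 8-cell to 16-cell (0.03) and from oocyte to 16-cell (-1.18). That table holds only the Ago2 isoforms from the intron 1 start. In 64 further cases a fold change called in neither setting changed sign. The Dicer1 isoform PB.18116.87 kept its calls except with a pseudocount of 5 (-0.94 and -0.73). Drosha from zygote to E2C was lost with a pseudocount of 5 (0.74) and in the isoform table (0.64), and its rise from oocyte to 16-cell with a pseudocount of 5 (0.56). The cause of these changes was not tested, and the isoform fits were chosen after seeing the data. No paired analysis was possible because the labels put all runs in 1 group and the columns carry no run number. For the same reason the run as a block was not run, and the start share at 10 UMIs or more had no later embryo. Under about 10 UMIs a stage, as for Ago1, Ago4 and Pld6, depth limits what can be said.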
